A study of Mus musculus with 2 samples.

Results

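The genes described here are 9 survival and death genes, chosen by name from the 27998 genes of the deposited count table: Mcl1 and Bcl2, which protect cells from apoptosis, Bcl2l11 (Bim), Bbc3 (Puma), Bad and Bid, which belong to the BH3-only group of triggers, the effectors Bax and Bak1, and the death receptor gene Fas. BCL2-family proteins meet at the mitochondrial outer membrane, where BCL2 and MCL1 hold the effectors BAX and BAK in check, BH3-only proteins release or activate them, and active BAX and BAK open the membrane so that cytochrome c leaves and caspases are switched on. FAS starts death from the cell surface through FADD and caspase 8, and BID links that route to the mitochondrion. In the erythroid lineage, survival under erythropoietin is classically tied to BCL-XL (Bcl2l1), to lower BIM and to limits on Fas signalling.

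The data came from CITE-seq, which reads the RNA and DNA-barcoded surface antibodies of the same cells. Livers of C57BL/6 mouse embryos at e13.5 were pooled and magnetically depleted of cells carrying the erythroid antigen Ter119. Ter119-positive cells were then returned to the depleted fraction in equal number, so stage sizes do not give shares in the liver. Staining used 10 antibodies including a nonspecific control. The library of RNA and its antibody library shared all 7863 cell barcodes, and no sample was replicated, so no test was possible and every interval covers counting error only. Unique molecular identifiers (UMIs), which count captured RNA molecules, numbered 2510 to 38047 in a cell, with a median of 5707.

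After limits on quality and doublets, 7244 cells were kept, and 6207 of them, low in 5 lineage antibodies, fell into 6 erythroid stages set by Ter119 and CD71, the transferrin receptor that red cell precursors use to take up iron. These were S0-low (Ter119-low, CD71-low; 1510 cells), S0-medium (1054 cells), S1 (Ter119-low, CD71-high; 612 cells), S2 (Ter119-intermediate, CD71-high; 1295 cells), S3 (Ter119-high, CD71-high; 838 cells) and S4/S5 (Ter119-high, CD71-low; 898 cells). Summed markers of the erythroid lineage were 4957 CPM (UMIs of a gene per 1000000 UMIs of the cell) in S0-low and 225500 CPM in S4/S5. These 10 markers include globin genes, whose share of UMIs is given below, and they were not summed without them. S0-low was not purely erythroid: 227 of its cells (15.0%) lay in clusters led by hepatocyte, megakaryocyte, myeloid or macrophage markers, against at most 0.490% of any later stage, and its 9 hepatocyte markers, all detected, summed to 6522 CPM against 411 to 712 CPM in later stages. Globin transcripts took 1.05% of UMIs in S0-low, 1.39% at S0-medium, 2.80% at S1, 13.2% at S2, 37.7% at S3 and 64.0% in S4/S5. Levels are therefore given as the mean over cells of CPM and, where the difference matters, as CPM of non-globin UMIs.

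The stages themselves rest on short DNA barcodes, shown because each stage is defined by how often they were counted on a cell, 5′ to 3′ and without a part singled out:
Ter119 antibody: gaggcgattgat
CD71 antibody: cgaagaaggagt
The first was counted a median of 4 times per cell in S0-low and 155.5 times in S4/S5, and the second 69 times in S0-low, 1611 times in S2 and 289 times in S4/S5.

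All 9 genes were found in the mouse annotation GRCm38.p6, the same assembly as the mm10 build of the files. Mcl1 lies on chromosome 3 (95656944 to 95663179, plus strand), Bcl2 on chromosome 1 (106538176 to 106714290, minus strand), Bcl2l11 on chromosome 2 (128126038 to 128162547, plus strand) and Bbc3 on chromosome 7 (16308398 to 16318334, plus strand). Bad lies on chromosome 19 (6941861 to 6951905, plus strand), Bid on chromosome 6 (120893119 to 120917062, minus strand), Bax on chromosome 7 (45461695 to 45466903, minus strand), Bak1 on chromosome 17 (27019812 to 27028627, minus strand) and Fas on chromosome 19 (34290647 to 34327775, plus strand). Bak1 overlaps Ggnbp1 and Bad overlaps Gpr137, each on the opposite strand, and Bcl2l11 overlaps Acoxl on the same strand. Pseudogenes overlap Bad and Bid, and the microRNA gene Mir3473f and the long noncoding RNA gene Gm37053 overlap Bcl2, with no strand given for these. How the counting treated strand and overlaps is not given in the sources used here, so whether reads of these neighbours entered the counts was not tested.

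The promoters of the 4 members with the most distinct courses are shown, since their start regions can be set beside those courses. RefSeq windows in GRCm38.p6 run from 250 bases before to 50 bases after an annotated start, and all 9 members matched, with 13 windows. Each window is written 5′ to 3′ on the strand of its gene, with motif matches on either strand in capitals. Searched were GATA sites (NGATAN with A or T first and A or G last), CACCC boxes (CCACACCC, CCGCACCC, CCTCACCC or CCCCACCC), the forkhead (FOXO) site GTAAACA and the STAT site TTCNNNGAA.
Mcl1, chr3:95658471-95658770, plus strand: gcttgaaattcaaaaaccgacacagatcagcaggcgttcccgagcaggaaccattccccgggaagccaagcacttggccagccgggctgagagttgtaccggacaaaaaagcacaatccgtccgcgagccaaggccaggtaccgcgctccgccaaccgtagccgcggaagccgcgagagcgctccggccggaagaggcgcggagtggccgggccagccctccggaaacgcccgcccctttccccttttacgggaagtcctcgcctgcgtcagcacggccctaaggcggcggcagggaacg
Bcl2, chr1:106714241-106714540, minus strand: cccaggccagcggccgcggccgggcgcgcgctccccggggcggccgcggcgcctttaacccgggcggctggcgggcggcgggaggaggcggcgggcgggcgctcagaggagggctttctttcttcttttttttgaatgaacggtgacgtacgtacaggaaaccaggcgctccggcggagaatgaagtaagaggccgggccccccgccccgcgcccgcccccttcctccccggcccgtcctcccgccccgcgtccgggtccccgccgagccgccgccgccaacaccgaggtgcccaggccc
Bcl2l11, first window, chr2:128125788-128126087, plus strand: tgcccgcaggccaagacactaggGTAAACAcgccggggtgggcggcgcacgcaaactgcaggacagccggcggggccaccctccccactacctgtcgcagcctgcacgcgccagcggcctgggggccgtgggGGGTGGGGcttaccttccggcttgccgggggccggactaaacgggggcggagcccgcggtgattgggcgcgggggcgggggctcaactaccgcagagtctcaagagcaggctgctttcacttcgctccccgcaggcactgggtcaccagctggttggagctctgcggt
Bbc3, second window, chr7:16310011-16310310, plus strand: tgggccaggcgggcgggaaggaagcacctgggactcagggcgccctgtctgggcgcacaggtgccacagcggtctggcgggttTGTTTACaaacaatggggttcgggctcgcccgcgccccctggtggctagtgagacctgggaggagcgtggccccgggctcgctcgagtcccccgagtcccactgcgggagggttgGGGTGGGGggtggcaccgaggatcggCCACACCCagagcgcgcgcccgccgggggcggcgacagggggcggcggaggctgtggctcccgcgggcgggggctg
The windows of Mcl1 and Bcl2 held none of the 4 motifs. Nor did the second window of Bcl2l11 or the first of Bbc3, which are not printed. In the printed window of Bcl2l11 the capitals mark the forkhead site, which starts 227 bases before the annotated start, and a CACCC box read on the other strand at 118 bases before it. In that of Bbc3 they mark a forkhead site on the other strand, 167 bases before the start, and a pair of CACCC boxes, which also fall in the next, overlapping window of the gene. The forkhead site was thus in 2 of the 13 windows, of 2 genes, and in 3.65% of all 32851 promoter windows. CACCC boxes were in 4 windows of 3 genes (Bcl2l11, Bbc3 and Fas) against 16.6% of all windows, a GATA site in 1 window, that of Bid, against 29.8%, and a STAT site in 1, that of Fas, against 8.30%. The member windows were rich in G and C, with a median of 66.0% against 52.7% over all windows and 27 CpG against 7. These are letter matches only, and no binding was measured in these libraries.

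Across the stages the family did not move as a block. From S0-low to S3, Bcl2 and Bcl2l11 were lowest relative to their start, at 0.0150 and 0.0738 of the S0-low level (0.441 for Bcl2l11 with stages from log10 antibody counts), Bid, Bak1, Bad and Bax were lower, Mcl1 was moderately lower on CPM of all UMIs but not on CPM of non-globin UMIs, and the difference of Bbc3 lay within its counting interval on the first scale while it was higher on the second. A comparison was read only where the gene had at least 50 UMIs in both stages together, which 8 members and 9407 genes had, with Fas left out. Of the 8, 6 were at least 2-fold lower in S3, against 70.8% of all genes, and 0 were at least 2-fold higher, against 5.76%. On CPM of non-globin UMIs 5 were lower against 49.0%, and 1, Bbc3, was higher against 10.7%. The median ratio of S3 over S0-low was 0.203 over the members and 0.310 over all genes tested, and 0.337 and 0.511 on the non-globin scale, so the share of lower members was near the background. In pooled stages, fewer molecules of a gene per cell and a larger total of other RNA cannot be told apart on the CPM scale.

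**Figure D1:**
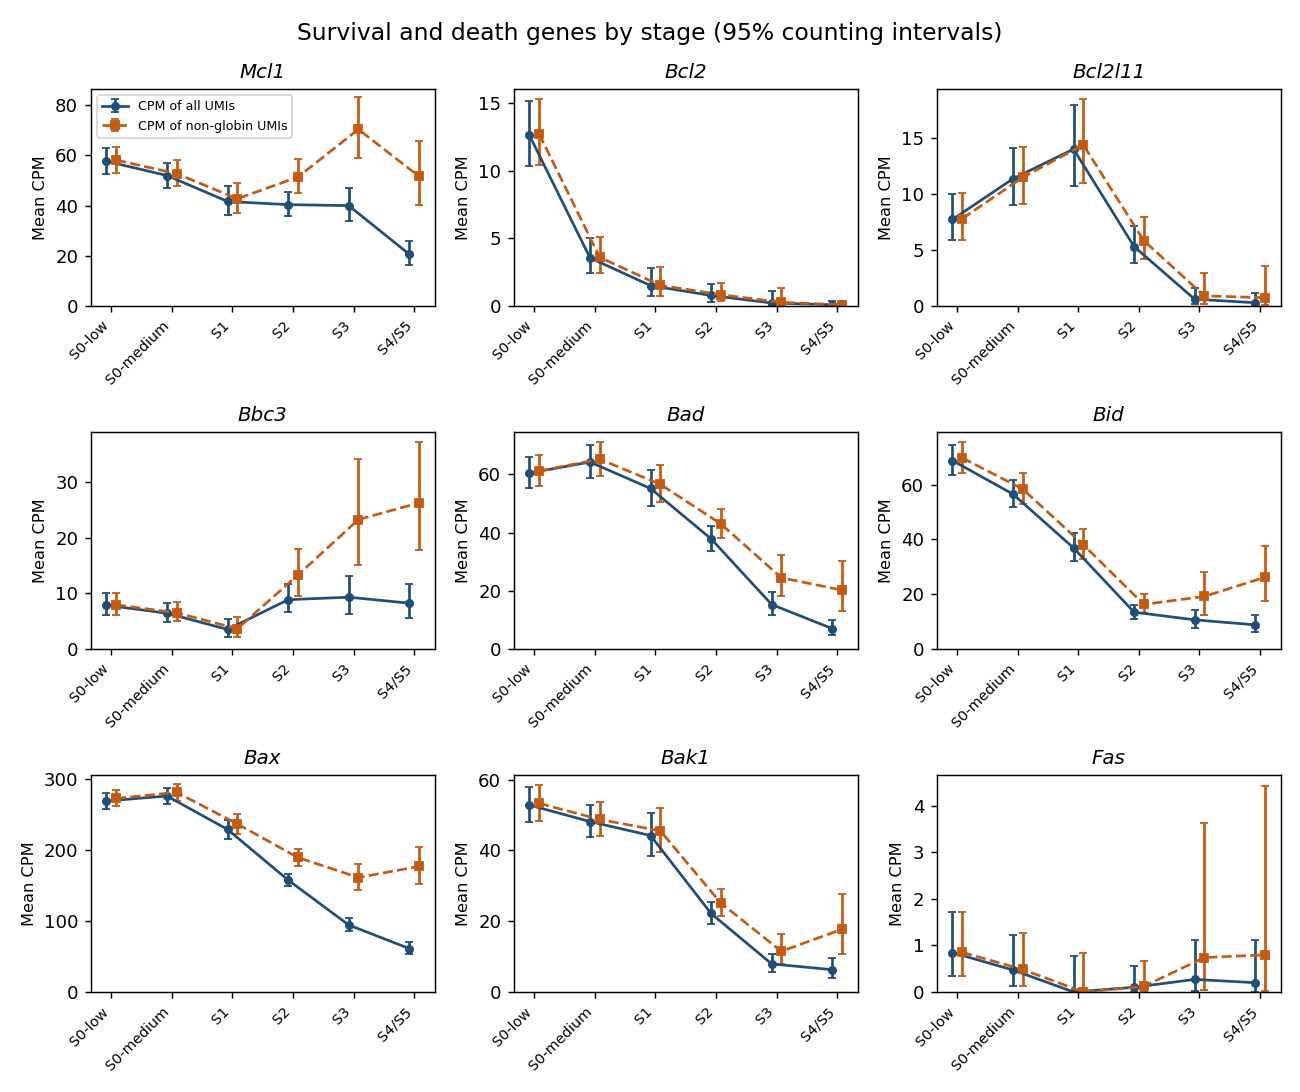
Mean CPM (vertical axes, each starting at 0) of each member in the 6 stages, with all UMIs (circles) or non-globin UMIs (squares) in the denominator; bars are 95% counting intervals. Bcl2 drops from 12.6 CPM at S0-low to 0.190 at S3, Bcl2l11 peaks at 14.0 at S1, and Bbc3 is lowest in S1 at 3.48.

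Bcl2, the founding survival gene, was a feature of the earliest cells. It stood at 12.6 CPM in S0-low (95% counting interval 10.4 to 15.2, 142 UMIs), 3.54 at S0-medium, 1.48 at S1, 0.746 at S2, 0.190 at S3 and 0.0578 in S4/S5, where S3 and S4/S5 held 1 UMI each. The intervals of S0-low and S0-medium did not overlap, and S0-medium over S0-low was 0.281 (0.183 to 0.419). S1 over S0-medium was 0.418 (0.178 to 0.890), but 1.38 in thinned cells, and the intervals of the later step ratios held 1. Bcl2 was the 1 of 8 members tested that was at least 2-fold lower in S0-medium than in S0-low, against 14.3% of all genes. S3 over S0-low was 0.0150 (0.000377 to 0.0855). With each cell thinned to 2000 UMIs, Bcl2 was seen in 2.25% of S0-low cells (exact 95% interval 1.56 to 3.13) and in 0 of 838 S3 cells, which at this thinned depth allows a share of cells with a UMI of up to 0.358% (3 counts; exact 95% upper bound 0.439%). Without thinning, the shares were 6.95% and 0.119%. In hepatocyte-like cells, given as a reference for free RNA, the thinned share was 0.529% (0.0134 to 2.91), with a median of 13001 UMIs per cell against 6146 in S0-low and 4534.5 in S3.

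Much of the S0-low signal of Bcl2 sat in few cells. An unnamed cluster of 489 cells, led by Lsp1, Cd34 (a surface marker of stem and progenitor cells), Ifitm3 and Hmga2, held 151 of the 350 Bcl2 UMIs in kept cells, at 45.7 CPM (38.1 to 54.4). It supplied 271 S0-low cells (17.9%), in which Bcl2 stood at 37.6 CPM against 7.15 CPM in the other S0-low cells. Mcl1 showed no such split, at 53.5 and 58.6 CPM. Leaving this cluster out, S0-medium over S0-low was 0.472 (0.294 to 0.746), where 0.281 was measured with it. The clusters were built on all genes, so these levels are a description.

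Mcl1, the other survival gene, whose protein turns over rapidly, was measured much more deeply. It stood at 57.7 CPM at S0-low, 52.0 at S0-medium, 41.6 at S1, 40.4 at S2, 40.0 at S3 and 20.5 in S4/S5, from 663, 570, 276, 376, 186 and 83 UMIs. The levels of S1, S2 and S3 had overlapping intervals, and S4/S5 lay below all others. S3 over S0-low was 0.693 (0.574 to 0.832). On the non-globin scale that direction turned, to 1.21 (0.995 to 1.47), and Mcl1 was highest in S3 at 70.5 CPM, against 51.4 in S2 and 51.7 in S4/S5. Counted as UMIs per cell, S3 over S0-low was 0.506 (0.427 to 0.596). Within Ter119-high cells ordered by CD71 antibody, Mcl1 was 9.73 CPM (5.27 to 16.4) in the lowest of 5 groups and 47.3 CPM (37.4 to 58.9) in the highest, and 32.2 and 78.6 CPM of non-globin UMIs.

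Bcl2l11, the BH3-only trigger known as BIM, had a peak in the middle of the course. It stood at 7.72 CPM in S0-low (5.87 to 9.97), 11.4 at S0-medium, 14.0 in S1 (10.7 to 18.0), 5.29 in S2 (3.81 to 7.16), 0.569 at S3 and 0.255 in S4/S5, from 80, 119, 81, 55, 5 and 2 UMIs. S1 was the highest stage, although its interval overlapped that of S0-medium, and S3 and S4/S5 were close to the limit of detection. S1 over S0-low was 1.82 (1.25 to 2.65), S2 over S1 was 0.377 (0.248 to 0.568) and S3 over S2 was 0.108 (0.0227 to 0.328). The size of the drop depended on how the stages were drawn: S2 over S1 was 0.741 with stages from log10 antibody counts, 0.589 with a Gaussian mixture, 0.530 with antibodies scaled within each cell and 0.512 on pooled non-globin CPM, and S3 over S0-low went from 0.0738 to 0.441 and 0.238 under the first 2 of these. In thinned cells 3.43% of S1 cells held a UMI (2.14 to 5.20) and 0 of 838 S3 cells did, with the same limits on cells with a UMI as for Bcl2. The unthinned shares were 11.1% and 0.597%, and 0 of 146 megakaryocyte-like cells held one at a median of 8894.5 UMIs.

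Bbc3, the BH3-only trigger PUMA and a classical p53 target, followed a different course. It stood at 7.85 CPM in S0-low (6.07 to 10.0), 6.41 at S0-medium, 3.48 in S1 (2.11 to 5.40), 8.85 in S2 (6.61 to 11.6), 9.30 at S3 and 8.23 in S4/S5, from 91, 75, 23, 67, 37 and 34 UMIs. S1 was the lowest stage, and its interval did not meet those of S0-low, S2, S3 and S4/S5. S2 over S1 was 2.55 (1.49 to 4.53), and Bbc3 was the 1 of 7 members tested that was at least 2-fold higher at this step, against 2.09% of all genes. The low point depended on how the stages were drawn: with classes from log10 antibody counts S2 over S1 was 0.977 (0.636 to 1.51), and from antibodies scaled within each cell it was 1.48 (0.986 to 2.22). It was also below 2-fold with a Gaussian mixture (1.79), without border cells (1.97), on pooled CPM (1.96) and in UMIs per cell (1.38). S3 over S0-low was 1.18 (0.750 to 1.84). On the non-globin scale it was 2.94 (1.79 to 4.71) as a mean over cells and 1.66 (1.10 to 2.46) with all UMIs of a stage pooled. Bbc3 UMIs per cell were 0.0603 in S0-low and 0.0442 in S3.

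Bid, which caspase 8 cleaves to carry death receptor signals to mitochondria, had its largest drop on entry to S2. It stood at 68.8 CPM at S0-low, 56.5 at S0-medium, 36.9 at S1, 13.4 at S2, 10.6 at S3 and 8.73 in S4/S5. The first 4 stages had intervals apart from each other, and the last 3 overlapped. S2 over S1 was 0.363 (0.286 to 0.459), so Bid and Bcl2l11 were the 2 of 7 members tested that were at least 2-fold lower at this step, against 14.8% of all genes. With stages from log10 antibody counts neither was, at 0.502 for Bid and 0.741 for Bcl2l11. On the non-globin scale Bid was lowest at S2, at 16.2 CPM, with 26.1 CPM in S4/S5.

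Bad, a BH3-only protein held inactive by survival kinases, was lower mainly from S2 on. It stood at 60.5 CPM at S0-low, 64.3 at S0-medium, 55.2 at S1, 37.8 at S2, 15.2 at S3 and 6.94 in S4/S5. The intervals of the first 3 stages overlapped, and the largest step was S3 over S2, at 0.403 (0.304 to 0.526). S4/S5 over S3 was 0.455 (0.285 to 0.713), and Bad was the 1 of 6 members tested that was at least 2-fold lower there, against 42.5% of all genes. On the non-globin scale S3 over S2 was 0.568 and the last step 0.826 (0.483 to 1.38), so neither was then 2-fold. The last step was also less than 2-fold with antibodies scaled within each cell (0.543), with no lineage limit (0.626) and in thinned cells (0.529).

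The effectors Bax and Bak1, which form the pores, were lower late in the course but not to the same degree. Bax stood at 269 CPM at S0-low, 276 at S0-medium, 229 at S1, 157 at S2, 94.3 at S3 and 61.1 in S4/S5. Bak1 stood at 52.8 CPM at S0-low, 48.2 at S0-medium, 44.2 at S1, 22.2 at S2, 7.92 at S3 and 6.30 in S4/S5. S3 over S0-low was 0.351 (0.315 to 0.391) for Bax and 0.150 (0.106 to 0.208) for Bak1, and these intervals were apart. On the non-globin scale they were 0.592 (0.522 to 0.668) and 0.216 (0.144 to 0.312), still apart. Bax was detected in 41.9% of S0-low cells and 15.2% of S3 cells after thinning, and in 76.1% and 35.6% without it. Bak1, Bad and Bcl2l11 were the 3 of 7 members tested that were at least 2-fold lower in S3 than at S2, against 31.7% of all genes. On pooled non-globin CPM the ratio was 0.555 for Bak1 and 0.608 for Bad. Between S0-medium and S1, 0 of 7 members tested were at least 2-fold lower, against 2.48% of all genes, so this count was near the background. Bcl2 (0.418) and Fas had too few UMIs to be among these 7.

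**Figure D2:**
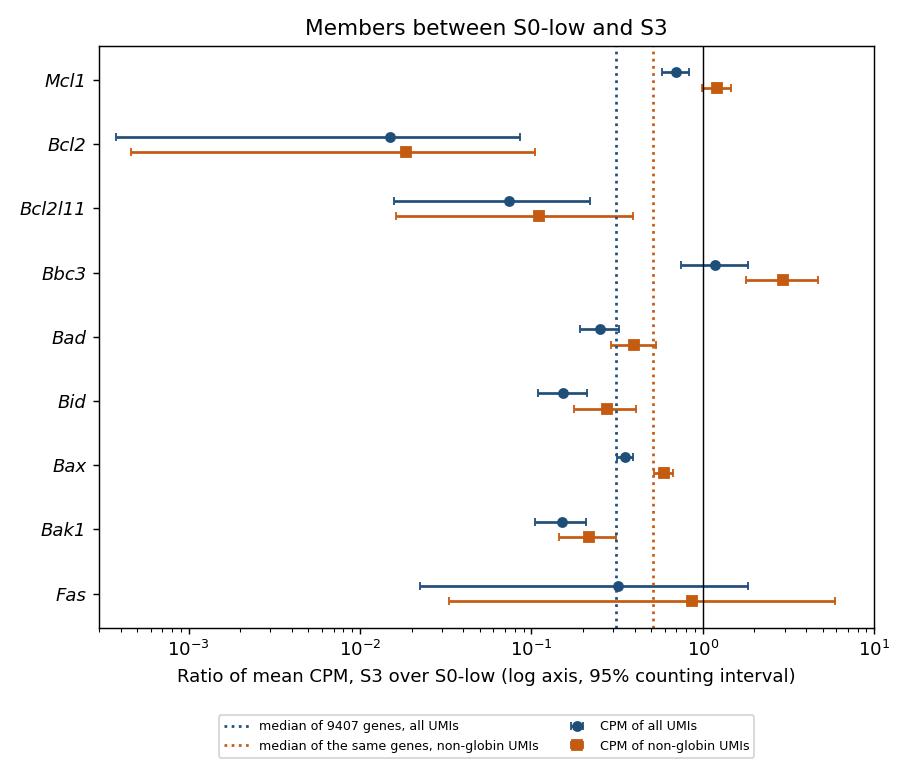
Ratio of mean CPM, S3 over S0-low (log axis), for each member with all UMIs (circles) or non-globin UMIs (squares) in the denominator; bars are 95% counting intervals and dotted lines the medians of the 9407 genes tested. Bcl2 lies farthest left at 0.0150, and Bax (0.351), Mcl1 (0.693) and Bbc3 (1.18) lie right of the median of 0.310 on the all-UMI scale, as does Fas (0.319), whose interval spans it.

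Summed by role, the UMIs of Mcl1 and Bcl2 made up 13.1% of those of the 8 family members in S0-low (exact 95% interval 12.2 to 13.9), 10.4% at S0-medium, 10.1% at S1, 12.8% at S2, 19.8% in S3 (17.3 to 22.4) and 17.5% in S4/S5 (14.2 to 21.2). The interval of S3 lay above those of S0-low to S2 and overlapped that of S4/S5. These sums hold members only: the survival gene Bcl2l1, which is not among them, had 161 UMIs in S0-low and 846 in S3, so the share is not one of all survival transcripts. Since each UMI is 1 captured 3′ end whatever the length of the transcript, the share does not depend on length or on globin, but capture can differ between genes. The sum was nearly all Mcl1 in S3, with 186 of 187 UMIs.

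Fas was close to absent from the erythroid stages. It had 50 UMIs in all kept cells, with 11 in S0-low, 5 at S0-medium, 0 at S1, 1 at S2, 2 at S3 and 1 in S4/S5. S0-low stood at 0.847 CPM (0.351 to 1.71), and 3 of its 11 UMIs remained when the non-erythroid-like cells were left out, at 0.382 CPM (0.0381 to 1.48). The 189 hepatocyte-like cells held 20 UMIs at 7.87 CPM (4.69 to 12.4) and the 146 megakaryocyte-like cells held 7 at 6.30 CPM (2.07 to 14.6). A difference of Fas between erythroid stages was not detectable at this depth. Its ligand gene Fasl had 1 UMI in S0-low and S3 together.

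Ordering the Ter119-low cells by CD71 antibody into 10 groups of 317 or 318 cells resolved the early part of the course. Bcl2 went from 23.2 CPM (15.9 to 32.7) in the lowest group to 10.3 in the third and 4.30 in the fourth, and was 0.239 in the highest. Bcl2l11 was lowest at the low end, at 3.17 CPM (0.912 to 7.88) and 3.52 in the lowest 2 groups. It was 9.43 (5.59 to 14.9) in the third, 17.4 (12.0 to 24.4) in the ninth and 11.7 in the highest. Groups between the third and the ninth ran from 9.28 to 13.6 CPM without a steady rise. Bid was 70.9 CPM in the lowest and 29.4 CPM in the highest group, while Bad and Bax were higher in between. Bad was 52.0 CPM (40.7 to 65.5) in the lowest, 74.6 (63.5 to 87.0) in the sixth and 52.6 (44.7 to 61.6) in the highest group. Bax was 211 CPM (187 to 238) in the lowest, 322 (298 to 347) in the fifth and 213 (196 to 231) in the highest, and the fifth lay clear of both ends. Bbc3 was 14.3 CPM (8.61 to 22.2) in the lowest group and 1.70 CPM (0.668 to 3.55) in the highest. The groups between ran from 4.9 to 8.5 CPM without a steady fall. Non-erythroid-like cells made up 23.3% of the lowest group and 0.631% of the highest. Without them, Bcl2 went from 24.6 to 0.257 CPM and Bcl2l11 from 4.62 CPM in the lowest group to 16.3 in the ninth and 11.5 in the highest. Only the hepatocyte-, megakaryocyte-, myeloid- and macrophage-like clusters were left out here, so any non-erythroid cells of unnamed clusters stayed in.

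**Figure D3:**
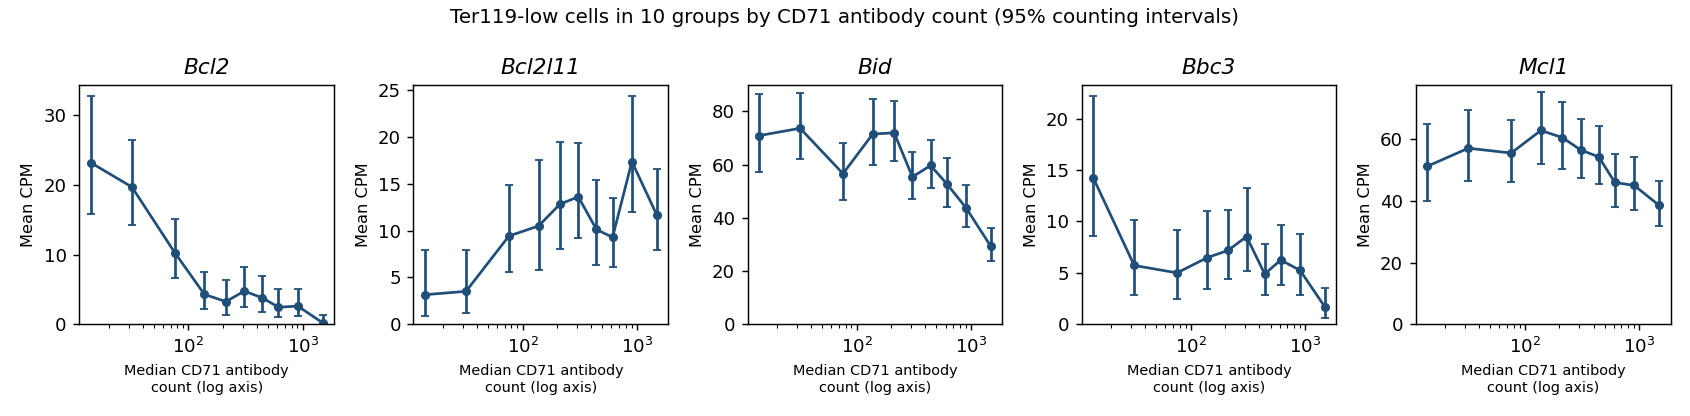
Mean CPM (vertical axes) of 5 members in Ter119-low cells placed in 10 groups by CD71 antibody count (median count of each group on a log axis); bars are 95% counting intervals. Bcl2 goes from 23.2 to 0.239 CPM while Bcl2l11 is 3.17 CPM in the lowest group, 9.43 in the third, 17.4 in the ninth and 11.7 in the highest.

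The antibody against cKit, the stem cell factor receptor of early progenitors, gave a related order. In 5 groups of Ter119-low cells, Bcl2 was 1.38 CPM (0.549 to 2.87) in the lowest and 10.4 CPM (7.77 to 13.7) in the highest, and Bid was 31.5 and 76.5 CPM. Bcl2l11 was highest in the second group, at 14.8 CPM (10.9 to 19.7), and 5.42 CPM (3.92 to 7.29) in the highest. Non-erythroid-like cells were not left out of these cKit groups. Hepatocyte-like cells had a median cKit count of 23, against 256 in S0-low, with Bcl2 at 1.48 CPM and Bid at 25.2 CPM. Their part in the cKit order was not tested. Along Ter119, Bcl2l11 was 11.5 CPM in the lowest of 10 groups of lineage-low cells and 0.502 CPM in the highest, with 7.66 CPM in the sixth and 2.89 CPM in the seventh.

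In the clusters named by non-erythroid markers the members had other proportions. Of the 690 cells in these clusters, 227 were also in S0-low, so comparisons with S0-low share cells. In the 82 macrophage-like cells Mcl1 stood at 143 CPM (108 to 186) and Bax at 336 CPM (284 to 396). Megakaryocyte-like cells had the highest Bbc3 of the named groups, at 40.3 CPM (25.2 to 60.9), 5.13-fold that of S0-low (3.01 to 8.42). Its 33 UMIs lay in 13.7% of those cells, of which 5 held at least 2 UMIs, with up to 7 in a cell. The same cells had no Bcl2l11 UMI (upper 95% bound 3.61 CPM). Hepatocyte-like cells had Bak1 at 8.81 CPM (4.36 to 15.8), below the 48.0 to 71.1 CPM of the other named groups, and Bax at 123 CPM. Myeloid-like cells had Bcl2 at 19.5 CPM (13.8 to 26.7) and Bid at 89.6 CPM (75.4 to 106).

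A cluster of 75 cells led by the embryonic globins Hbb-y and Hba-x, the globins of yolk sac-derived primitive red cells, had 0 UMIs of Mcl1, Bcl2, Bcl2l11, Bak1 and Fas, with an upper 95% bound of 10.4 CPM each. Its Bbc3 level was 34.0 CPM (18.7 to 56.8) from 15 UMIs. On the non-globin scale Bbc3 was 194 CPM, against 40.7 CPM in megakaryocyte-like cells, and Bax was 434 CPM. The bound above is on CPM of all UMIs and would be wider on the non-globin scale. This cluster made up 1.55% of S3 and 4.45% of S4/S5 cells and held 5 of the 37 and 9 of the 34 Bbc3 UMIs there. Without it, S3 over S0-low for Bbc3 was 1.06 (0.652 to 1.68) on CPM of all UMIs. The non-globin ratio of 2.94 was not recomputed without the cluster. Another unnamed cluster of 59 cells, led by Mest, Sparc, Serpinh1 and Dcn, had Bcl2 at 57.5 CPM (36.7 to 85.8) from 28 UMIs. It was not among the clusters left out as non-erythroid-like, and its share of each stage was not measured. Summed mesenchymal markers, with Dcn among them, were 24.7 CPM in S0-low and 1.11 to 2.12 CPM in later stages.

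**Figure D4:**
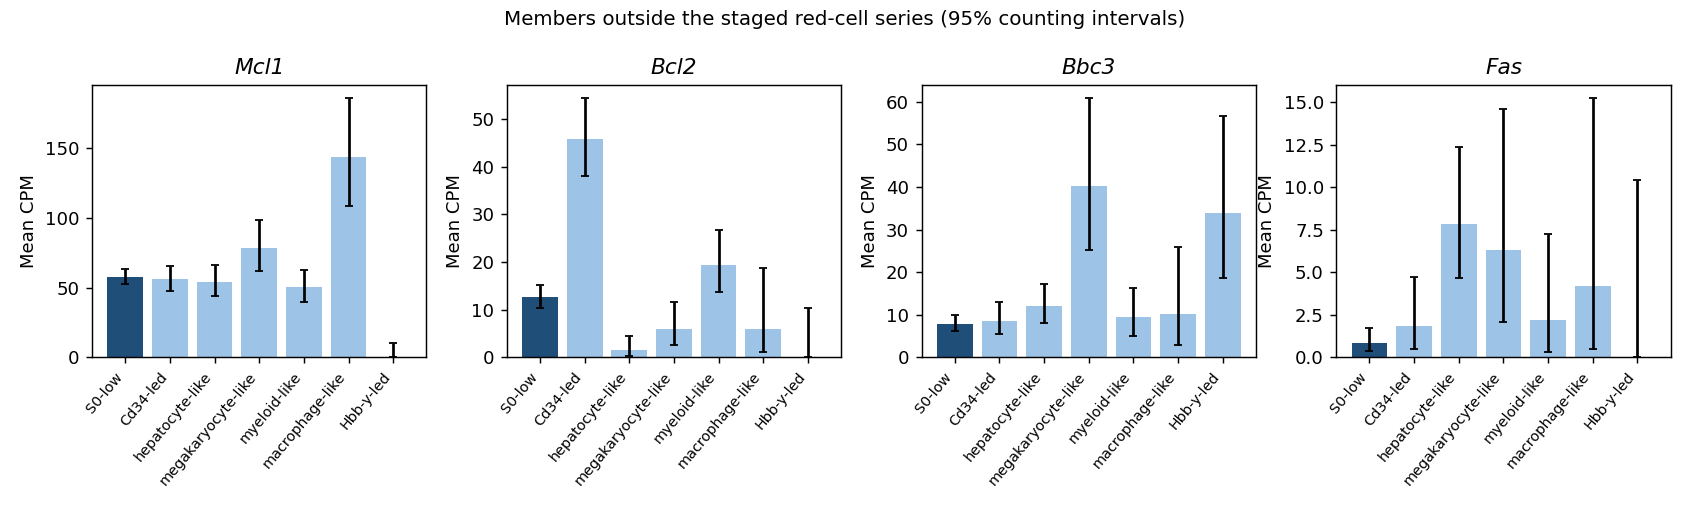
Mean CPM of all UMIs (vertical axes, from 0) of 4 members in S0-low (dark bars) and in clusters of kept cells (light bars, some of whose cells are also in S0-low); error bars are 95% counting intervals. Bcl2 reaches 45.7 CPM in the Cd34-led cluster, Bbc3 40.3 in megakaryocyte-like and 34.0 in Hbb-y-led cells, and Fas 7.87 in hepatocyte-like cells.

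The rest of the family stood apart in 1 respect. Of 16 other Bcl2 family genes, 5 had enough UMIs, with 2 at least 2-fold higher in S3 than in S0-low and 2 at least 2-fold lower. Bcl2l1, which encodes the survival protein BCL-XL, was 15.7 CPM at S0-low, 20.8 at S0-medium, 23.4 at S1, 65.1 at S2, 227 at S3 and 379 in S4/S5. The measured level was higher at every stage than at the one before. The steps up to S1 were small, rested on 161, 172 and 106 UMIs, and were given no interval. S3 over S0-low was 14.5 (12.0 to 17.8). Bnip3l (NIX), needed to clear mitochondria from maturing red cells, was 3.97-fold higher (3.76 to 4.19), from 266 to 1058 CPM. Bcl2l12 was lowest, at 0.258 (0.196 to 0.335). Pmaip1 (Noxa), which targets MCL1, had 46 UMIs in S0-low and 2 in S3, below the minimum.

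In the death receptor pathway 8 of 11 genes had enough UMIs, and all 8 were at least 2-fold lower in S3, against 70.8% of all genes. They ran from Casp8, the initiator caspase, at 0.103 (0.0506 to 0.189) to Ripk1, a kinase of the receptor complex, at 0.394 (0.269 to 0.563). On the non-globin scale 7 of the 8 were, against 49.0%. Among the 8, Tnfrsf1a was 17.1 CPM in S0-low, 2.83 at S0-medium and 3.17 at S3, so its difference lay at the first step. Of the 12 caspase and apoptosome genes reported 10 were at least 2-fold lower and 0 higher, and Casp2, an initiator caspase gene, had the highest ratio at 0.771 (0.605 to 0.975). Of the 5 inhibitor of apoptosis genes 3 were lower. Birc3 was at 0.0432 (0.00281 to 0.198), and Birc5 (survivin, also a mitotic protein) at 1.43 (1.36 to 1.51).

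Of 13 p53 pathway genes 10 had enough UMIs, 8 were at least 2-fold lower and 0 higher, with Perp, a p53 target, at 0.102 (0.0321 to 0.247) and Mdm2, which degrades p53, at 1.14 (0.927 to 1.40). Perp was 16.4 CPM in S0-low, 1.33 at S0-medium and 1.67 at S3, so its difference lay at the first step. S0-low, the start of every ratio in these lists, held 15.0% non-erythroid-like cells, and the ratios were not recomputed without them. Of 14 survival signalling genes 13 had enough, 2 were at least 2-fold higher and 7 lower. The survival kinase gene Pim1 was highest, from 145 to 659 CPM (4.55, 4.22 to 4.91), and Kit lowest, at 0.0482 (0.0269 to 0.0798). The shares of all genes, 70.8% lower and 5.76% higher, apply to each of these lists. Beside a median ratio of 0.310 over all genes tested, the medians were 0.195 for the death receptor list, 0.273 for caspases, 0.321 for the inhibitors, 0.331 for p53, 0.443 for survival signalling and 0.615 for the other family genes. With non-globin CPM they ran from 0.374 for the death receptor list to 1.01 for the other family genes, beside 0.511.

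**Figure D5:**
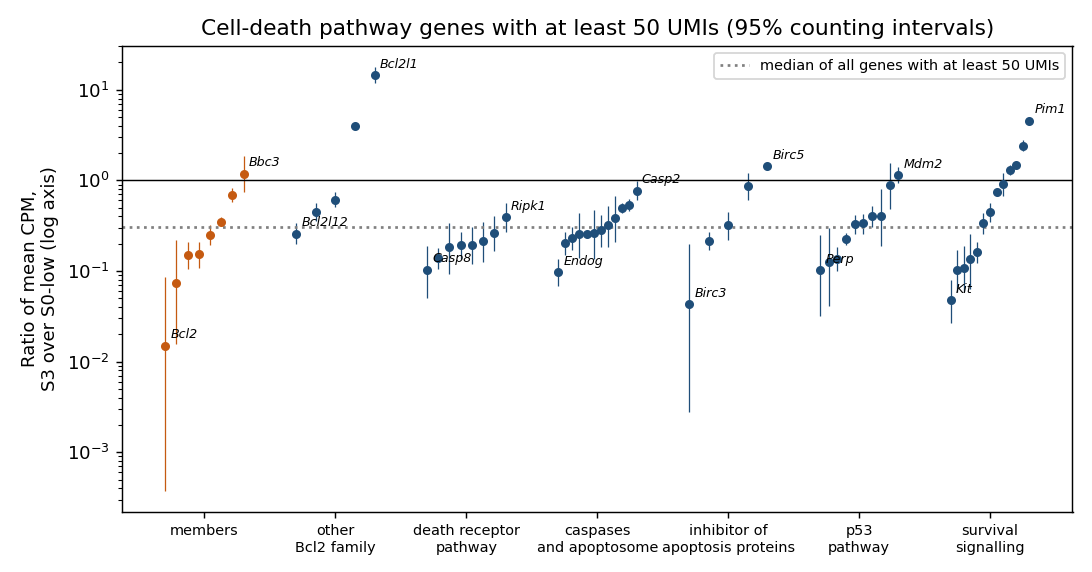
Ratio of mean CPM, S3 over S0-low (log axis), for genes of each list with at least 50 UMIs in both stages together; bars are 95% counting intervals, named points are the highest and lowest of those plotted in each list, and the dotted line is the median of all genes. Bcl2l1 is highest at 14.5, and the 8 death receptor genes end at Ripk1 with 0.394.

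Likeness of course was measured as Pearson's r of log2(mean CPM + 10) over 10 groups, the 6 stages and the 4 named clusters, which share 1 library and its depth differences. Among members the closest pair was Bax and Bak1 (0.932) and the most opposed was Bcl2l11 and Bbc3 (-0.58). Bbc3 was 40.3 CPM in megakaryocyte-like cells, which had 0 Bcl2l11 UMIs, and 3.48 to 12.05 CPM in the other groups. The r values of Bbc3 therefore lean on that group and were not recomputed without it. Of other genes with at least 300 UMIs, Kcnab2 (0.986), Sox4 (0.969) and Nin (0.969) were most like Bcl2, and Cenpb (0.969), Twf1 (0.966) and Ap2b1 (0.964) most like Mcl1. Nearest to Bcl2l11 were Tmem238 (0.964), Kat8 (0.933) and 2900076A07Rik (0.926), and nearest to Bbc3 Hexim1 (0.949), Sdpr (0.946) and Prkca (0.936). The closest to Bad was Rps28 (0.993), to Bid Pigv (0.990), to Bax Sbf1 (0.991) and to Bak1 Snapc5 (0.989).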

How the data were processed

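The authors deposited raw UMI counts per gene and cell (10x Genomics; Cell Ranger, build mm10; Cell Ranger and Seurat are named in the submitters' processing notes without versions) and antibody counts per cell. Each is 1 library from pooled embryos, so cells are not replicates. Here the study's quality limits were applied (between 300 and 5000 genes per cell, mitochondrial share up to 9%), and 128 doublets called by Scrublet (scanpy 1.11.5, expected rate 6%) were removed. Cells low in lineage antibodies had a sum of 5 such counts within 2 scaled median absolute deviations above its median, on a log scale (95.8 counts, 6424 cells low, 217 of them in no stage). Ter119 (up to 24 and 88 counts) and CD71 (up to 233 and 761 counts in Ter119-low, 742 in Ter119-high cells) were split by k-means on centred log ratios. S2 needed CD71 at or above the lower border of S1. Clusters (Leiden, 16 components, resolution 0.8, 17 clusters) were named where at least 3 of their top 10 genes were markers of 1 list, a rule set after the clusters were seen. The top 10 genes of 5 clusters met it, 1 of them erythroid.

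CPM was averaged over cells. Intervals (95%) are exact Poisson or binomial intervals of effective counts and cover counting error only. A gene was read with at least 50 UMIs in both stages together, and called past 2-fold. The named genes are the members, the gene of each pathway list with the highest and the lowest ratio, and the 3 genes most like each member with at least 300 UMIs. In the list of caspases and apoptosome genes, 1 gene is not reported here and was left out of its counts and median. Bnip3l, Pmaip1, Fasl and Tnfrsf1a were named after their values were seen. The members and lists were chosen with earlier results of these data known. Ratios and intervals were run on simulated data. Coverage there was 188 of 200 genes given a change and 95.5% of 8909 unchanged genes. Such data cannot show coverage for real counts that gather in few cells. In S0-low, Bcl2 was in 6.95% of cells, where its mean CPM in every cell would give 9.10%, so real intervals may be too narrow.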

Additional observations from a re-analysis of the deposited data

How the results depend on the processing

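Of the 144 ratios of S3 over S0-low recomputed under 16 alternatives, 115 stayed inside the counting interval of the reported value, 27 left it in the same direction or without a call, and 2 turned. Those 2 were Mcl1 on non-globin CPM, 1.21 as a mean over cells and 1.15 pooled. Non-globin CPM gave Bbc3 2.94, Bad 0.399, Bid 0.274, Bax 0.592 and Bak1 0.216, and pooled it gave Bcl2l11 0.255, Bad 0.505, Bid 0.307, Bax 0.682 and Bak1 0.368. Pooled CPM of all UMIs gave Bax 0.430 and Bak1 0.232, and UMIs per cell gave Mcl1 0.506, Bbc3 0.733 and Bax 0.301. Stages from log10 antibody counts gave Bcl2l11 0.441, Bad 0.363, Bax 0.488 and Bak1 0.219. A Gaussian mixture gave Bcl2l11 0.238 and Bax 0.450, antibodies scaled within each cell gave Bax 0.398, and no lineage limit gave Bax 0.403. The redrawn stages differed in size from the 1510 cells of S0-low and 838 of S3. Log10 counts gave 609 and 1883 cells, scaling within each cell 637 and 1440, and a Gaussian mixture 638 and 1082. Without border cells Bcl2 was 0, and in thinned cells Bcl2, Bcl2l11 and Fas were 0, because S3 then held 0 UMIs of them. Of 683 step ratios, 7 turned: from log10 antibody counts Bbc3 S1 over S0-medium (1.13), Bad S1 over S0-medium (1.04) and Bbc3 S2 over S1 (0.977), on non-globin CPM Bax S4/S5 over S3 (1.10, and 1.01 pooled), in UMIs per cell Bid S0-medium over S0-low (1.22), and in thinned cells Bcl2 S1 over S0-medium (1.38). Beyond the scale or count named, the cause was not tested. Genes at least 2-fold higher in S3 numbered 542, or 1006 on non-globin CPM and 1176 with no minimum of UMIs. Genes lower numbered 6660, or 4270 with at least 200 UMIs and 11773 with no minimum.

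The linear-scale lineage limit, pooled non-globin CPM and the removal of the Cd34-led and Hbb-y-led clusters were chosen after seeing the data. Leaving out non-erythroid-like cells, the doublet step or the quality limits kept all members inside their intervals for S3 over S0-low. No paired analysis was possible because there is 1 RNA library. Depth limits Fas in all stages, with 0 to 11 UMIs per stage, and Bcl2 and Bcl2l11 from S3 on, with 1 to 5.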
